A study of Mus musculus with 6 samples.

Results

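Glutathione transferases attach the tripeptide glutathione to reactive or fat-soluble molecules, and together with the enzymes that make, reduce and take apart glutathione they were examined here in mouse epididymis with and without occludin. The gene set took each listed gene named as a transferase of the alpha, kappa, mu, omega, pi, theta or zeta class or as microsomal. The set also took in Gclc, Gclm, Gss, Gsr, Hpgds, Ggt5, Ggt6, Ggt7, Ggct and Oplah. It held 34 of the 57127 genes listed, of which 30 passed the filter on low counts and were tested. Ggt6, Gsta1, Gstp2 and Mgst2 did not pass, with at most 22, 7, 4 and 18 counts in any library.

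Whole epididymides of adult C57BL/6 males were profiled by RNA-seq, in 3 libraries of wild-type mice (WT) and 3 libraries of Ocln-/- mice (Ocln-KO). Ocln encodes occludin, a membrane protein of tight junctions. The knockout was constitutive and present in the whole body, and because the mutant males are sterile they came from crosses of heterozygous parents, so that changes in the epididymis and changes elsewhere in the animal cannot be told apart. The sources speak of separate extractions and also of pooled RNA, so it is not certain that a library is 1 mouse, and p-values then measure only the spread between these libraries.

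Glutathione is built stepwise from its amino acids. Glutamate-cysteine ligase, made of the catalytic subunit Gclc and the modifier subunit Gclm, joins glutamate to cysteine, and glutathione synthetase (Gss) adds glycine. Glutathione reductase (Gsr) returns the oxidised form to the reduced one. In the epididymis the pathway is known for protecting maturing sperm and the duct lining from oxidation, and transferases of the mu class are abundant in the duct epithelium. Many genes of the pathway are known targets of the transcription factor NRF2, which binds the antioxidant response element in promoters.

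The libraries held between 30646424 and 38870780 counts, and counts are given per 1000000 (CPM) after TMM scaling, under which 3 counts equal between 0.0801 and 0.0941 CPM. Ocln had 85.8, 78.7 and 91.7 CPM in WT, against 15.1, 15.3 and 14.9 CPM in Ocln-KO, so the labels and the targeted gene point the same way. On the first principal component, which held 47.9% of the variance, the WT libraries lay between -50.9 and -35.0, Ocln-KO replicates 1 and 2 at 17.6 and 28.7 and Ocln-KO replicate 3, which stood apart, at 80.6. An extraction note in the records names prefrontal cortex where the tissue label gives epididymis. Genes of the epididymal epithelium were abundant, with Crisp1 at 14878 CPM in WT, and genes of the initial segment and caput ran from Lcn5 and Rnase9, at 4924 and 2673 CPM in WT, to Lcn9, Adam28 and Cst11, with at most 4, 5 and 5 counts in any library.

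Of the 30 glutathione genes tested, 12 (40%) fell in Ocln-KO and none rose at an adjusted p under 0.05. The test was the quasi-likelihood test of edgeR, with p adjusted by Benjamini and Hochberg's method over 19691 genes, and estimates are given as the log2 fold change of Ocln-KO over WT ± its standard error (SE). In all genes tested the same threshold was passed downward by 5.04% and upward by 3.91%. These shares were 992 and 770 genes, and with scaling by total counts alone 674 genes were lower and 1174 higher, while 11 of the 12 glutathione genes still fell. The 12 were Gsta2, Gsta3 and Gsta4 of the alpha class, Gstm1, Gstm2, Gstm4, Gstm5, Gstm6 and Gstm7 of the mu class, Gstk1, Gclc and Gss. At an unadjusted p under 0.05, 16 genes were lower and 1 was higher, and DESeq2 called that 1 gene, Hpgds, while limma-voom called none. With the further requirement of a fold change under 0.5, the threshold for differentially expressed genes (DEGs), 4 genes were lower (Gsta2, Gsta3, Gsta4 and Gstm5), against 1.70% of all genes. The estimate was negative for 23 of the 30, and their median log2 fold change was -0.44, beside 0.01 over all genes tested. In 18 genes each Ocln-KO library lay below each WT library, a pattern that 19.4% of all genes tested showed. These calls depended on single libraries, as did those over all genes. Without WT replicate 1, 2 or 3 no glutathione gene passed, although 14, 16 and 14 were lower at an unadjusted p under 0.05. Over all genes, 19, 145 and 40 were lower in these fits, against 992 with every library kept. When Ocln-KO replicate 2 was left out, Gsta3 and Gstm4 alone passed. With the replicate number as a block in the fit, no glutathione gene passed, and 15 were lower at an unadjusted p under 0.05.

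**Figure D1:**
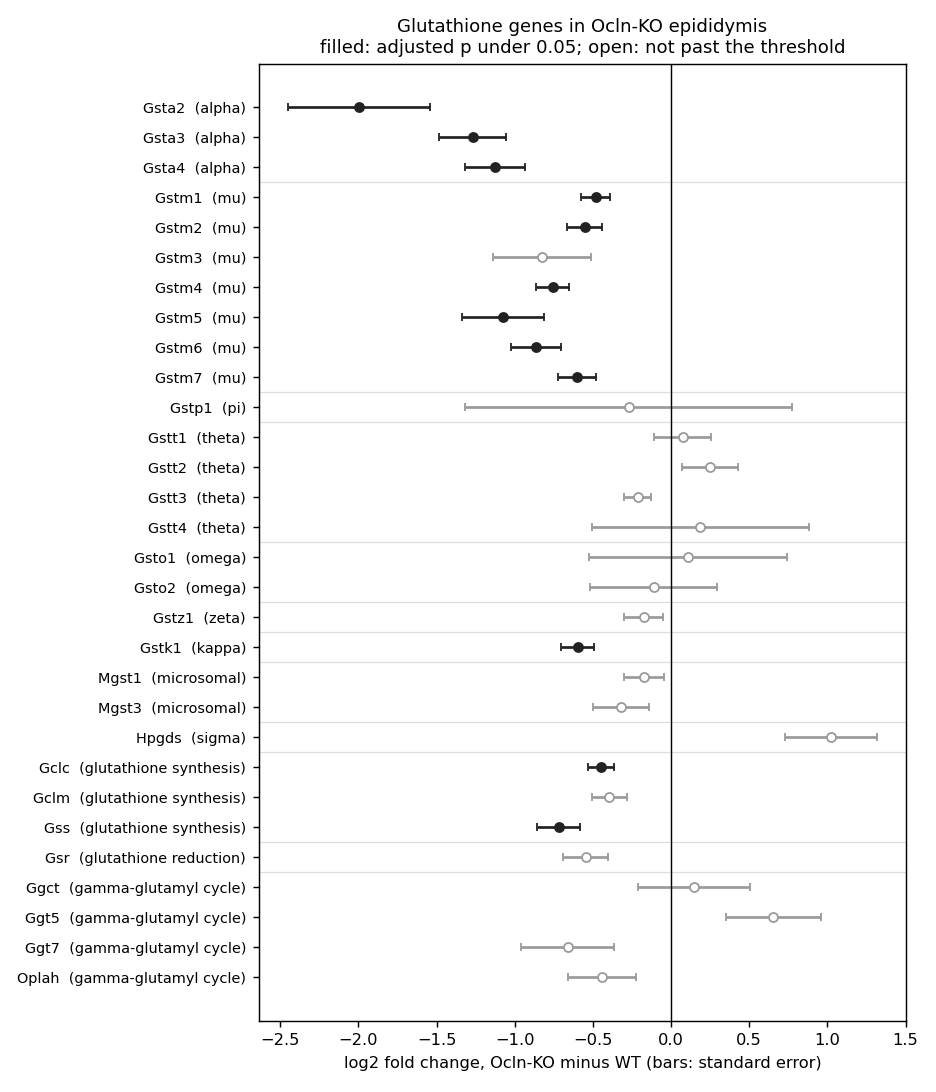
Log2 fold change (Ocln-KO minus WT, x axis) of the 30 glutathione genes tested, grouped by class, with bars for the standard error and filled points for an adjusted p under 0.05. The filled points, 12 in number, all lie left of 0 and belong to the alpha, mu and kappa classes and to glutathione synthesis, while theta and omega estimates straddle 0.

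In WT the transferase transcripts were dominated by the mu class, which conjugates glutathione to a wide range of electrophiles. Per kilobase of exon, Gstm7 stood highest at 1067 ± 102 CPM per kb (SD, n = 3), followed by Gstm1 at 505 ± 24.2, Gstm2 at 402 ± 26.8, Gstm5 at 197 ± 27.7 and Gstm6 at 165 ± 15.5 CPM per kb. The WT libraries of neighbours in this order did not overlap, except those of Gstm5 and Gstm6. The most abundant gene outside the mu class was Mgst1, at 65.6 ± 5.85 CPM per kb, while Gstm3 stood far below its mu-class neighbours at 3.46 ± 0.42 CPM per kb. Gstt3, Gstk1, Gsta3 and Gclc lay between 22.8 and 25.3 CPM per kb, and each overlapped the next in this order. The length used was the union of all annotated exons of a gene. For Gsta3, Gstt3 and Gclc it was 4344, 3842 and 3766 bases, against 1457, 1880 and 3423 in the longest coding transcript. The order of these levels therefore depends on the length used. Summed over the 7 mu genes, the level was 3813, 3530 and 4050 CPM in WT, against 2666, 2571 and 2175 CPM in Ocln-KO. The sum over all 34 genes was 4641 ± 281 CPM in WT, against 3101 ± 274 CPM in Ocln-KO (SD, n = 3 each), or 66.8% of the WT level.

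The 7 mu genes form a cluster on chromosome 3 of GRCm38, from 107895821 to 108044894, a span of 149.1 kb, in the order Gstm5, Gstm7, Gstm6, Gstm3, Gstm2, Gstm1 and Gstm4. Gstm5 lies on the plus strand and the others on the minus strand. The promoters of Gstm7 and Gstm5, and that of Gsta3 on chromosome 1, are shown because they belong to the genes that fell in Ocln-KO and hold the core letters of the antioxidant response element, TGACNNNGC, on either strand. The sequences are the RefSeq promoters of GRCm38.p6, from 250 bases before to 50 bases after the annotated start, with the match in capitals: Gstm7 from chr3:107931565-107931864 on the minus strand, Gstm5 from chr3:107895604-107895903 on the plus strand and Gsta3 from chr1:21240335-21240634 on the plus strand.
Gstm7: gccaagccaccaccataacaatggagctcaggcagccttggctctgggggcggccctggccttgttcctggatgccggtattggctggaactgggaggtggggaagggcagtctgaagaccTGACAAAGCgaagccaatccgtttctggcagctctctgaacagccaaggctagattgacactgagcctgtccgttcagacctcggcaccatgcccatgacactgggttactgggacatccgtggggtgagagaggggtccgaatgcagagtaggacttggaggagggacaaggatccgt
Gstm5: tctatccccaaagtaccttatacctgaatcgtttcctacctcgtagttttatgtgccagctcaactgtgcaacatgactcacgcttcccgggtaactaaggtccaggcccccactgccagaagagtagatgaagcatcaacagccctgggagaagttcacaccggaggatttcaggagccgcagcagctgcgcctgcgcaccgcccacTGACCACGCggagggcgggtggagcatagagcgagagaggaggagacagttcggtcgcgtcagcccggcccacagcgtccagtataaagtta
Gsta3: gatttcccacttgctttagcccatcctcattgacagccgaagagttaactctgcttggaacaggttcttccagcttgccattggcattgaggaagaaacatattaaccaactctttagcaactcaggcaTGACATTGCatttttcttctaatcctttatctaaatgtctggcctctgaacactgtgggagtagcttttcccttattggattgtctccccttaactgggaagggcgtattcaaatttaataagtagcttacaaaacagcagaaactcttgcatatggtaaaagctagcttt
The matches begin at positions -129, -42 and -121 from the start, and each reads on the coding strand. For Gstm7 the printed window belongs to a start inside the annotated gene, and the match lies downstream of the 5′ end of the gene at 107931817. The window of the start at that 5′ end, chr3:107931768-107932067, lacks these letters. Of the 28 glutathione genes with a promoter in the RefSeq table, 6 (21.4%) held the letters: Gstm7, Gstm5 and Gsta3, and also Gclm, Ggct and Mgst1, none of which passed the test. Among all promoters of this length 12.4% held them, as did 14% of all genes with a promoter. A match of letters is a description of the window and not a binding site. Gclc, Ggt5, Gsr, Gsta4, Gstt2 and Oplah were not matched.

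Within the cluster, 6 of the 7 mu genes fell in Ocln-KO. Gstm7, the most abundant, had 1687, 1557 and 1881 CPM in WT, against 1219, 1148 and 1007 CPM in Ocln-KO. The log2 fold change was -0.60 ± 0.12 (SE; edgeR adjusted p = 0.0297). No Ocln-KO library reached the lowest WT library, and Ocln-KO replicate 3 was the lowest of all. Gstm1 had 749.9, 705 and 776 CPM in WT against 544, 544 and 508 CPM in Ocln-KO, a log2 fold change of -0.48 ± 0.09 (SE; edgeR adjusted p = 0.0257), the smallest fall of the 6. Gstm2 had 695, 623 and 707 CPM in WT against 489, 491 and 401 CPM in Ocln-KO, a log2 fold change of -0.55 ± 0.11 (SE; edgeR adjusted p = 0.0314). For both genes Ocln-KO replicates 1 and 2 were nearly equal and replicate 3 lay below them.

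The less abundant mu genes had more negative estimates. Gstm5, a mu form known from testis and brain, had 292, 237 and 226 CPM in WT, against 139, 149 and 70.1 CPM in Ocln-KO. The log2 fold change was -1.08 ± 0.26 (SE; edgeR adjusted p = 0.0458), and without Ocln-KO replicate 3, which held the lowest value, it was -0.81 (adjusted p = 0.0102). Without Ocln-KO replicate 1 its adjusted p was 0.0551 and with scaling by total counts alone 0.0501. Gstm6 had 302, 319 and 362 CPM in WT, against 214, 188 and 139 CPM in Ocln-KO, a log2 fold change of -0.86 ± 0.16 (SE; edgeR adjusted p = 0.0251). Gstm4 had 82.6, 83.6 and 93.2 CPM in WT, against 57.7, 48.9 and 46.8 CPM in Ocln-KO, a log2 fold change of -0.76 ± 0.11 (SE; edgeR adjusted p = 0.0141). The genotypes did not overlap in any of these genes. Gstm3 did not pass (log2 fold change -0.83 ± 0.32, SE; edgeR adjusted p = 0.132), although its Ocln-KO libraries, at 3.36, 2.79 and 1.54 CPM, also lay below the WT libraries at 4.73, 3.92 and 4.98 CPM. Without WT replicate 1, 2 or 3 no mu gene passed, with adjusted p for the 6 between 0.0504 and 0.153, and without Ocln-KO replicate 2 Gstm4 alone passed (0.0433).

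**Figure D2:**
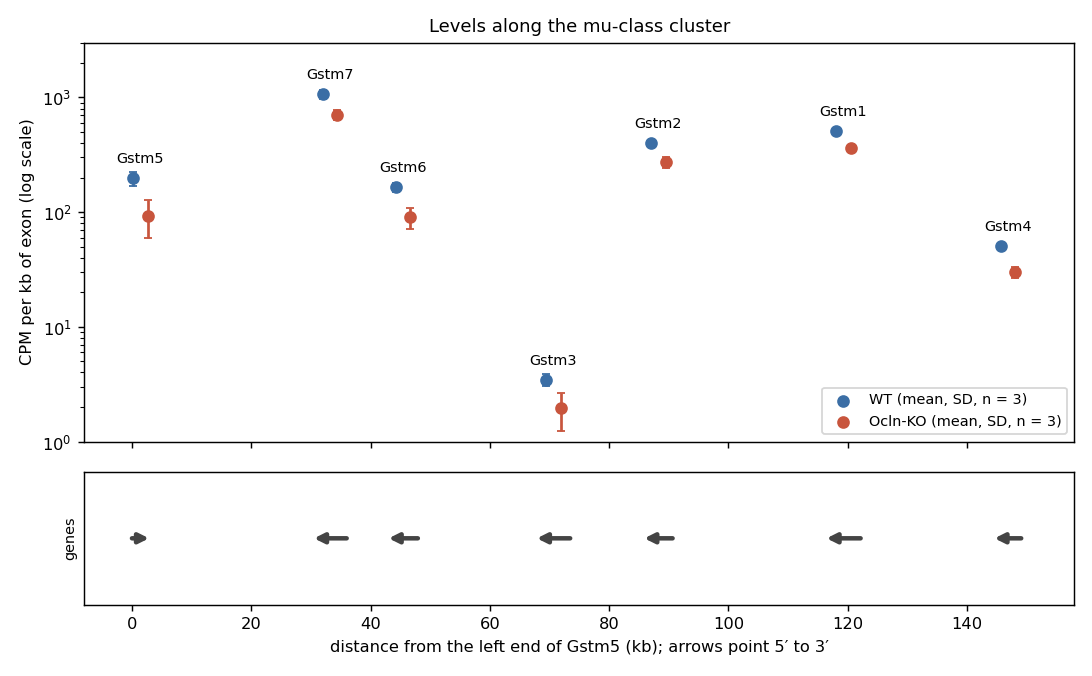
Mean level in CPM per kb of exon (y axis, log scale, bars for the SD, n = 3) of the 7 mu genes against distance from the left end of Gstm5 in kb, with arrows below for gene position and strand. In each gene the Ocln-KO mean lies below the WT mean, whether the gene is near the top, as Gstm7 at 1067 CPM per kb in WT, or near the bottom, as Gstm3 at 3.46 CPM per kb.

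The genes around the cluster were measured for comparison. Of the genes other than the 7 that lie inside it or within 100 kb, 4 were tested, and in 3 of them, Ampd2, Gnat2 and Gnai3, the libraries of the genotypes overlapped, with log2 fold changes of 0.29, 0.66 and 0.11. The 4th, the antisense gene 4933431E20Rik, overlaps the exons of Gstm5 and fell by 0.57 on the log2 scale (edgeR adjusted p = 0.0484). The strand setting of the counting is not given in the sources used here, so reads of this gene and of Gstm5 cannot be told apart with certainty. On either strand, 9.34% of the 100-base windows of Gstm5 occur in transcripts of another gene, which is 4933431E20Rik alone. Mu genes also resemble each other or their pseudogenes. Of the windows of Gstm3, Gstm1 and Gstm6, 13.8%, 7.73% and 2.41% occur in transcripts of other genes. No window of Gstm7 or Gstm4 does. For Gstm1 the windows are shared mostly with the pseudogenes Gstm2-ps1 and Gm8834, which had 13.9 and 6.92 CPM in WT.

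The alpha class, which includes enzymes that reduce lipid hydroperoxides and detoxify the lipid aldehyde 4-hydroxynonenal, had the most negative estimates of the set. Summed over its 4 genes, the level was 127, 121 and 133 CPM in WT, against 61.4, 57.9 and 40.2 CPM in Ocln-KO, or 41.9% of the WT level. Gsta3 (chromosome 1, 21240589 to 21265661), which conjugates the epoxide of aflatoxin, had 101, 98.8 and 111 CPM in WT, against 53.4, 47.7 and 28.1 CPM in Ocln-KO. The log2 fold change was -1.27 ± 0.21 (SE; edgeR adjusted p = 0.0213). Gsta4 (chromosome 9, 78182774 to 78209349), the form with high activity towards 4-hydroxynonenal, had 21.8, 20.1 and 19.4 CPM in WT, against 6.98, 9.38 and 11.7 CPM in Ocln-KO, a log2 fold change of -1.12 ± 0.19 (SE; edgeR adjusted p = 0.0216). In Gsta4 the order of the Ocln-KO libraries was turned round, with replicate 1 the lowest and replicate 3 the highest.

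Gsta2 had the largest fold change of the 30 genes and low counts, with 137, 82 and 78 counts in WT and 31, 24 and 11 counts in Ocln-KO. These were 3.66, 2.40 and 2.10 CPM against 0.966, 0.753 and 0.325 CPM, a log2 fold change of -1.995 ± 0.46 (SE; edgeR adjusted p = 0.0391). The genotypes did not overlap. Of its 100-base windows 35% also occur in Gsta1, Gm10639 or Gm3776, which had at most 7, 0 and 1 counts in any library, so that Gsta2 is uncertain where reads could be split among these copies. Without WT replicate 1, 2 or 3 none of the alpha genes passed, with adjusted p between 0.0604 and 0.143, and without Ocln-KO replicate 2 Gsta3 passed (0.0499) while Gsta2 and Gsta4 did not (0.0893 and 0.0559).

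**Figure D3:**
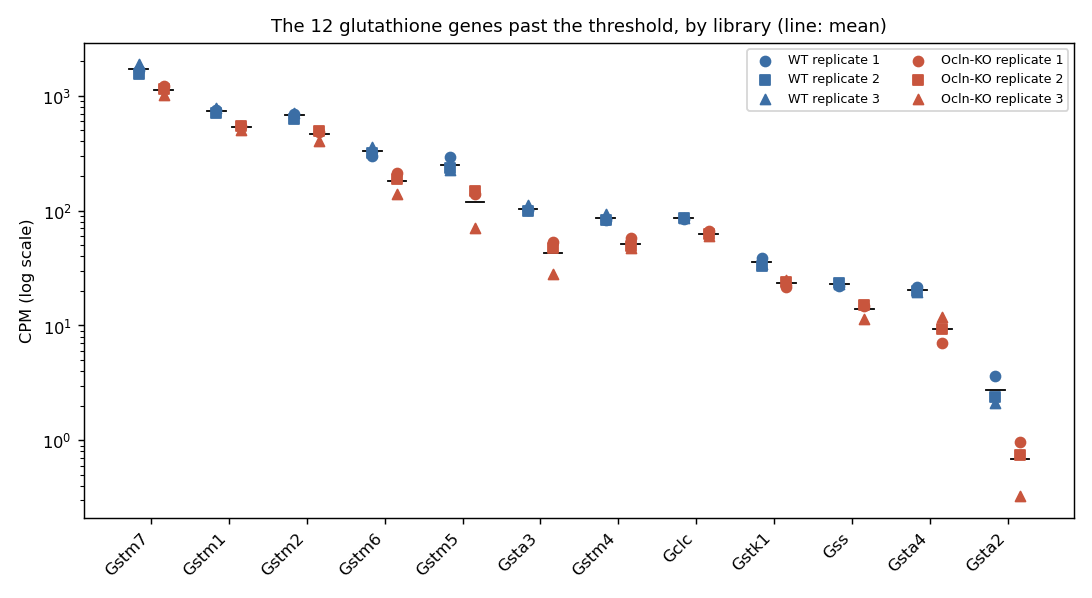
CPM on a log scale (y axis) of the 12 glutathione genes with an adjusted p under 0.05, 1 symbol for each of the 3 WT and 3 Ocln-KO libraries and a line at each mean. In each gene the Ocln-KO symbols lie below the WT symbols, and the triangle for Ocln-KO replicate 3 is the lowest in 10 of the 12, with Gsta4 and Gstk1 as the exceptions.

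Genes of both steps of glutathione synthesis fell in Ocln-KO. Gclc (chromosome 9, 77754535 to 77794485) had 84.4, 86.6 and 87.1 CPM in WT, against 67.1, 62.4 and 59.7 CPM in Ocln-KO, a log2 fold change of -0.45 ± 0.08 (SE; edgeR adjusted p = 0.0246). The modifier subunit Gclm had 139, 137 and 142 CPM in WT, against 123, 92.4 and 103 CPM in Ocln-KO. It did not pass (log2 fold change -0.39 ± 0.11, SE; edgeR adjusted p = 0.069), though its genotypes did not overlap, and it passed in 2 of the 14 alternative analyses, among them the fit without Ocln-KO replicate 1 (0.0285). Gss (chromosome 2, 155563181 to 155592810) had 22.0, 23.3 and 22.9 CPM in WT, against 14.9, 15.2 and 11.4 CPM in Ocln-KO, a log2 fold change of -0.72 ± 0.14 (SE; edgeR adjusted p = 0.0268). The WT libraries of the 3 genes varied little, with an SD of 1.44, 2.47 and 0.677 CPM, and every Ocln-KO library lay below them.

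Exons of Gss overlap those of Acss2, an acetyl-CoA synthetase gene on the opposite strand, which itself fell by 1.02 on the log2 scale (edgeR adjusted p = 0.00863). Without the strand setting, the reads of Gss and Acss2 cannot be told apart in the shared stretch. Gsr, which regenerates reduced glutathione, had 89.1, 83.6 and 95.7 CPM in WT, against 67.9, 68.1 and 48.0 CPM in Ocln-KO. Its Ocln-KO libraries lay below those of WT and it missed the threshold (log2 fold change -0.55 ± 0.14, SE; edgeR adjusted p = 0.0547), passing in 4 of the 14 alternatives, among them limma-voom (0.0497) and the fit in which Ocln-KO replicate 3 was left out (0.0458). Without WT replicate 1, 2 or 3 neither Gclc nor Gss passed, with adjusted p between 0.0788 and 0.104, and without Ocln-KO replicate 2 they were at 0.0674 and 0.0507.

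Gstk1, the kappa transferase of mitochondria and peroxisomes on chromosome 6 (42245935 to 42250447), had 38.8, 33.2 and 34.1 CPM in WT, against 21.5, 23.7 and 24.9 CPM in Ocln-KO. The log2 fold change was -0.60 ± 0.11 (SE; edgeR adjusted p = 0.0228). Here Ocln-KO replicate 3 was the highest of its genotype, still below the lowest WT library. Without WT replicate 1, 2 or 3 its adjusted p was 0.104, 0.0604 and 0.0864, and without Ocln-KO replicate 2 it was 0.0592.

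In the theta, omega, zeta, pi and microsomal classes no gene passed, in edgeR or in any of the 14 alternatives. Mgst1, the microsomal transferase of the endoplasmic reticulum and outer mitochondrial membrane, had 146, 125 and 125 CPM in WT, against 119, 98.2 and 134 CPM in Ocln-KO, and the genotypes overlapped (log2 fold change -0.17 ± 0.13, SE; edgeR adjusted p = 0.413). Gstt3, the most abundant theta gene, had 93.1, 96.0 and 103 CPM in WT, against 86.5, 78.1 and 87.3 CPM in Ocln-KO, a log2 fold change of -0.21 ± 0.09 (SE; edgeR adjusted p = 0.152) with no overlap. Of its windows 23.9% are shared with Gm20441, an overlapping gene on the same strand. The other theta genes, Gstt1, Gstt2 and Gstt4, had log2 fold changes of 0.08, 0.25 and 0.19 with overlapping libraries.

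Gstz1, the zeta enzyme of tyrosine breakdown, had 34.3, 41.2 and 42.7 CPM in WT, against 30.5, 36.7 and 37.6 CPM in Ocln-KO (log2 fold change -0.17 ± 0.12, SE; edgeR adjusted p = 0.394). Its libraries overlapped, as did those of the omega genes Gsto1 and Gsto2. Gsto1 had 2.70, 1.96 and 7.80 CPM in WT, against 1.68, 4.36 and 7.39 CPM in Ocln-KO, a spread within each genotype far wider than the difference between them (log2 fold change 0.11 ± 0.63, SE; edgeR adjusted p = 0.931). Mgst3 had a log2 fold change of -0.32 (edgeR adjusted p = 0.276).

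Gstp1, the pi enzyme, varied most between libraries of the same genotype. It had 2.78, 12.7 and 12.6 CPM in WT, against 0.997, 20.6 and 1.68 CPM in Ocln-KO, so the lowest and the highest of the 6 values were both Ocln-KO libraries. Its log2 fold change of -0.27 had a standard error of 1.05 (edgeR adjusted p = 0.892), and at this spread no difference was detectable. Gstp1 shares 52.8% of its windows with Gstp2 or Gstp-ps, and its count is uncertain where reads could be split, though Gstp2 had at most 4 counts.

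Hpgds, the sigma transferase that makes prostaglandin D2 and is known from mast cells and macrophages, was the gene with the highest positive estimate. It had 1.58, 2.49 and 1.96 CPM in WT, against 3.24, 3.83 and 5.18 CPM in Ocln-KO, with every Ocln-KO library above every WT library. By edgeR it did not pass (log2 fold change 1.02 ± 0.29, SE; edgeR adjusted p = 0.0678), whereas by DESeq2 it did (adjusted p = 0.0157). Marker genes of macrophages, 11 tested, summed to 212 to 250 CPM in WT, against 260 to 468 CPM in Ocln-KO, and 1 of them, Trem2, passed the test upward. Of 8 mast cell markers 4 were tested and Cpa3 and Cma1 passed upward, while the sum over the list, most of it Kit, was 17.8 to 19.3 CPM in WT, against 14.4 to 20.2 CPM in Ocln-KO. Fcer1a, Ms4a2 and Tpsab1 had at most 7, 6 and 10 counts in any library. The part of these cells in the level of Hpgds was not tested.

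The enzymes of the gamma-glutamyl cycle, which together take glutathione apart and recover its amino acids, were tested in 4 cases. None passed in edgeR or in any of the 14 alternatives. Oplah, the 5-oxoprolinase, had 16.4, 12.3 and 19.0 CPM in WT, against 14.8, 10.9 and 9.46 CPM in Ocln-KO (log2 fold change -0.44 ± 0.22, SE; edgeR adjusted p = 0.223). Ggt7 had a log2 fold change of -0.66 and Ggt5 one of 0.65, with edgeR adjusted p of 0.187 and 0.199. The libraries of Ggt7 did not overlap. For Ggt5 they all but met, with 3.983 CPM in Ocln-KO replicate 2 against 3.982 CPM in WT replicate 2. Ggct had 9.72, 11.5 and 5.70 CPM in WT, against 5.51, 11.7 and 12.5 CPM in Ocln-KO, and the genotypes overlapped. Exons of Ggt7 overlap Acss2 and those of Oplah overlap Exosc4 and Smpd5 on the opposite strand, as those of Gclm overlap Gm17494 and those of Gstz1 Pomt2.

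**Figure D4:**
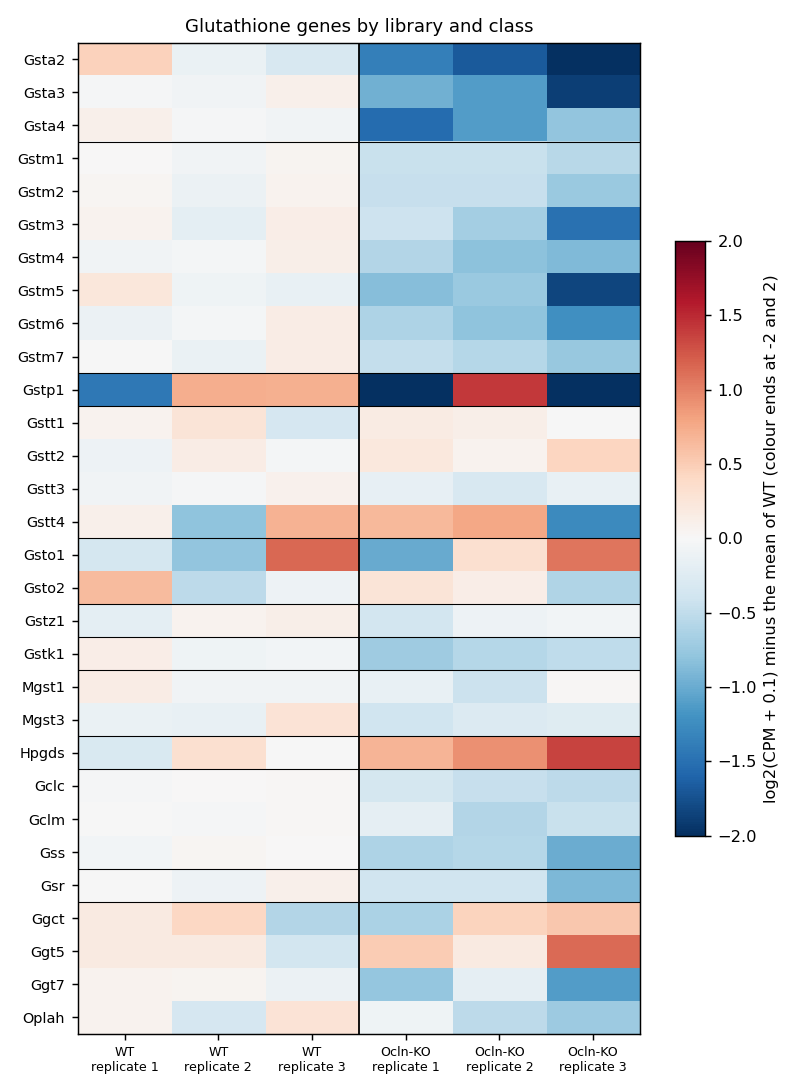
Each cell shows log2(CPM + 0.1) minus the WT mean for 1 of the 30 glutathione genes tested (rows, by class) in 1 library (columns), blue below and red above the WT mean, with the colour ending at -2 and 2. The alpha and mu rows are blue in the 3 Ocln-KO columns and darkest for Ocln-KO replicate 3 in most rows, Hpgds is red there, and Gstp1, Gstt4 and Gsto1 vary within both genotypes.

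The Ocln-KO libraries also differed among themselves. Ocln-KO replicate 3 held the lowest value of its genotype in 17 of the 30 genes tested, and replicates 1 and 2 did in 8 and 5. Replicate 3 was lowest in 10 of the 12 genes that fell and in all 6 mu genes that fell. It also stood apart over all genes tested, at 80.6 on the first principal component. In what share of all genes it was lowest was not counted. Over the 12 genes the median log2 difference from the WT mean was -0.61, -0.66 and -0.84 in Ocln-KO replicates 1, 2 and 3. These 12 were picked by a test on the same libraries, so medians below 0 give no separate support. Over all 30 glutathione genes tested the medians were -0.43, -0.44 and -0.66, beside 0.002, 0.002 and -0.001 over the 19691 genes tested. Without Ocln-KO replicate 3 each of the 12 passed the test, and Gsr passed as well.

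Marker genes of other cell types also differed between these libraries. In whole tissue, fewer cells of a type and less RNA per cell cannot be told apart. Of 8 clear cell markers tested 6 fell, among them Foxi1 and Atp6v0d2, and the list summed to 152 to 206 CPM in WT, against 74.4 to 100 CPM in Ocln-KO, while Slc26a4 had at most 2 counts in any library. Markers of the epididymal epithelium summed to 22695 to 26277 CPM in WT, against 12372 to 20135 CPM in Ocln-KO, and of its 9 genes Aqp9 fell and Spag11b rose. Epcam, Cdh1, Krt8 and Krt18, which mark epithelial cells of any kind, had log2 fold changes of -0.20, -0.27, -0.31 and 0.00 and none passed. Smooth muscle markers summed to 1181 to 1421 CPM in WT, against 1599 to 2118 CPM in Ocln-KO, with 1 of 6 higher, and blood markers to 21.9 to 49.5 and 6.03 to 13.2 CPM, with 1 of 5 lower. Adipocyte markers summed to 8.04 to 14.8 and 0.621 to 5.33 CPM and lymphocyte markers to 2.35 to 2.99 and 4.61 to 8.96 CPM in WT and Ocln-KO. The sums of sperm markers (356 to 436 and 114 to 464 CPM), basal cell markers (251 to 264 and 262 to 302 CPM) and initial segment and caput genes (6405 to 9398 and 4796 to 20340 CPM) overlapped. Of 7 basal cell markers Krt14 rose, and of 8 initial segment and caput genes tested Lcn2 and Gpx5 rose. Gpx5, at up to 10031 CPM in Ocln-KO, is part of that sum and stands also among the glutathione-dependent enzymes below. Their part in the levels of the glutathione genes was not tested.

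Genes around the pathway were counted on 3 further lists, at the threshold that 5.04% of all genes tested passed downward and 3.91% upward. Of 17 genes tested for cysteine supply and glutathione turnover, 4 fell, and the median log2 fold change was -0.20. They were Slc1a1, a transporter of glutamate and cysteine (log2 fold change -4.62), Cbs, which starts the route from homocysteine to cysteine (-1.70), the neutral amino acid carrier Slc1a4 (-0.84) and Slc7a11, the cystine importer (-0.79). Slc7a11 had 623, 518 and 359 CPM in WT, against 317, 296 and 254 CPM in Ocln-KO, with no overlap and an edgeR adjusted p of 0.0465. Slc7a11 missed the threshold whichever of the 6 libraries was left out, as did Clic4 and Tkt of the lists below. Slc1a1 fell from 31.1 ± 1.91 to 1.27 ± 1.05 CPM (SD, n = 3 each), and its log2 fold change came to -5.21 when Ocln-KO replicate 1 was left out and -4.06 when Ocln-KO replicate 3 was.

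Of 27 other glutathione-dependent enzymes tested, 5 fell and 2 rose, with a median log2 fold change of -0.25. Gpx3, the secreted glutathione peroxidase, had 5883, 5720 and 6437 CPM in WT, against 3667, 2950 and 1755 CPM in Ocln-KO, a log2 fold change of -1.11 ± 0.25 (SE; edgeR adjusted p = 0.0371). Ocln-KO replicate 3 was again the lowest. Adh5, which reduces S-nitrosoglutathione, Lancl1, Clic4 and the peroxiredoxin Prdx6 fell by 0.73, 0.62, 0.58 and 0.48 on the log2 scale.

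The secreted epididymal peroxidase Gpx5 and Gpx6 rose. Gpx5 had 54.4, 172 and 26.3 CPM in WT, against 256, 7258 and 10031 CPM in Ocln-KO, so that Ocln-KO replicate 1 lay close to WT and the other two far above it (log2 fold change 6.12 ± 1.34, SE; edgeR adjusted p = 0.0359). Gpx6 had 0.534, 1.58 and 0.377 CPM in WT, against 2.12, 10.3 and 13.0 CPM in Ocln-KO, the same order of libraries (log2 fold change 3.36 ± 0.76, SE; edgeR adjusted p = 0.0383). The log2 fold change of Gpx5 was 7.18 without WT replicate 2, and leaving out Ocln-KO replicate 1 or 3 gave 6.69 or 5.49, and that of Gpx6 was 4.21 without WT replicate 2. Gpx6 did not pass with limma-voom (0.106).

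Of 24 genes tested for NRF2 and its targets outside the glutathione genes, 5 fell, with a median log2 fold change of -0.29. Nqo1, the quinone reductase often used to read NRF2 activity, had 113, 108 and 116 CPM in WT, against 52.2, 30.8 and 29.2 CPM in Ocln-KO, a log2 fold change of -1.59 ± 0.21 (SE; edgeR adjusted p = 0.0127). Srxn1, which repairs oxidised peroxiredoxins, had 250.3, 254 and 303 CPM in WT, against 144, 133 and 78.0 CPM in Ocln-KO (log2 fold change -1.18 ± 0.22, SE; edgeR adjusted p = 0.0245). The carbonyl reductases Cbr1 and Cbr3 and the transketolase Tkt fell by 0.84, 0.74 and 0.57 on the log2 scale. Of the 24 estimates 21 were negative. In 13 of the 24 genes each Ocln-KO library lay below each WT library, and in 1 each lay above. The first of these patterns was shown by 19.4% of all genes tested. Among the genes that did not pass, Hmox1 had a log2 fold change of 0.00, and Nfe2l2, which encodes NRF2 itself, one of 0.20 (edgeR adjusted p = 0.152). Over the 3 lists, 14 of 68 genes fell and 2 rose, where 5.04% of all genes tested fell and 3.91% rose. Without WT replicates 1, 2 and 3 the 14 became 0, 2 and 0 and the 2 became 0, and without Ocln-KO replicate 2 they became 5 and 0.

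**Figure D5:**
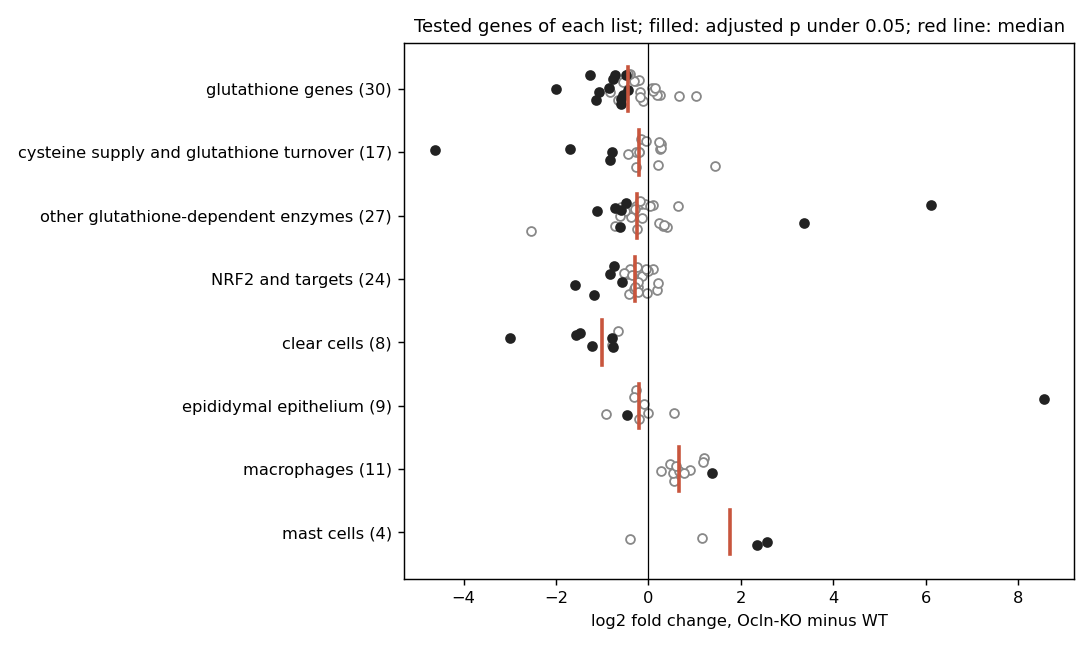
Log2 fold change (Ocln-KO minus WT, x axis) of each tested gene of the glutathione set, the 3 pathway lists and 4 marker lists, with the number tested in brackets, filled points for an adjusted p under 0.05 and a red line at the median. The medians of the glutathione set and pathway lists lie between -0.44 and -0.20, that of the clear cell markers at -1.001 and that of the macrophage markers at 0.66.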

How the data were processed

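Whole-epididymis total RNA of 3 WT and 3 Ocln-KO libraries was depleted of rRNA, made into directional libraries and sequenced as paired ends in a single lane. The authors aligned the reads to GRCm38 with HISAT2 (2.0.4 in the submitters' processing notes) and deposited the HTSeq counts per gene and library as whole numbers with no scaling. How strand and multiply aligned reads were handled in counting is not given in the sources used here. Columns were matched to samples by name, and 0 sample columns were left unused.

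The genotypes were compared in edgeR 4.0.16 under R 4.3.3 (filterByExpr by genotype, TMM factors, glmQLFit and glmQLFTest), and p was adjusted by the Benjamini-Hochberg method across the tested genes. DEGs had an adjusted p under 0.05 and a fold change over 2 or under 0.5. Each SE was taken as the size of the log2 estimate over the root of its F value. DESeq2 1.42.0, limma-voom (limma 3.58.1), other scaling factors and filters, a replicate block and each library left out in turn were the alternatives. With 3 libraries against 3 an exact two-sided permutation test cannot go below 0.1, and none was run. Libraries of a genotype differed from each other by more than counting noise (chi-square per degree of freedom between 15.1 and 123). Floors of 3 counts cover counting error only.

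Coordinates, exon lengths and shared 100-base windows come from GENCODE vM21 on GRCm38, and promoters from RefSeq. Genes were named if their adjusted p was under 0.05 or if they were the most abundant per kb of exon in their class, and from each related list up to 5 that passed in each direction. The other members are given by range and count or with shorter values. Hmox1, Nfe2l2 and the single markers named were chosen after their values were seen. The members and lists were chosen with earlier results of these data known.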

Additional observations from a re-analysis of the deposited data

How the results depend on the processing

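The direction of the 12 glutathione genes that fell did not change in any of the 14 alternatives. All 7 mu genes also kept a negative estimate in each of them. The alternatives refit the same counts or part of them, from which the 12 were picked, so kept signs give no separate support. The median log2 fold change of all genes was 0.01 with TMM factors and 0.09 with total counts only, under which 11 of the 12 still passed. All 12 were also called by DESeq2 and limma-voom, with RLE factors, with the top 20 genes by abundance kept out of the TMM factors, with every gene tested and with a minimum of 10 counts in every library. Leaving out a library tested fewer samples: the number of glutathione genes that passed downward ranged from 0 to 13, the number of DEGs lower from 0 to 3, the number of related genes lower from 0 to 13 and the number of related genes higher from 0 to 2. DESeq2 called 1 glutathione gene higher, and 1 DEG higher, both Hpgds, and limma-voom called 1 related gene higher in place of 2; the cause was not tested. Over all genes, the 992 lower and 770 higher became 1708 and 1604 with DESeq2, 31 and 10 with the replicate block, and 19 to 944 and 4 to 782 with a library left out.

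The paper's methods name 3 WT and Ocln-KO pairs of mice, but what libraries with the same replicate number share is not stated. Deviations of libraries with the same number correlated at -0.053, -0.0299 and -0.00784. These correlations cannot exclude a pairing, since the deviations were taken within only 3 libraries of each genotype. With the number as a replicate block, 0 glutathione genes, 0 DEGs lower, 0 related genes lower and 0 related genes higher passed, with 15 glutathione genes lower at an unadjusted p under 0.05, and Ocln still passed (edgeR adjusted p = 0.017).

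Signs turned in genes that passed in no analysis. Genes that passed lay far from 0 against their standard error in the same counts, so their kept signs give no separate support. With a library left out in turn, the log2 fold change ran from -0.089 to 0.443 for Ggct, -0.462 to 0.946 for Gsto1, -0.352 to 0.284 for Gsto2, -2.798 to 0.258 for Gstp1, -0.073 to 0.209 for Gstt1 and -0.164 to 0.660 for Gstt4. Gstt4 was at -0.017 with limma-voom. Counts limit Gsta2, Gstt4 and the genes not tested, whose differences were not detectable at this depth unless given above.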
